A study of Saccharomyces cerevisiae with 25 samples.

Results

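The yeast autophagy genes described here are the gene names made of ATG and a number, of which the table held 28 among 6648 names in all. Of these 28, 25 had a value in at least 1 library, 6 (ATG5, ATG13, ATG19, ATG22, ATG27 and ATG33) had one in every library, and ATG15, ATG16 and ATG29 had none. A gene was listed only where it had at least 10 reads, and many of these genes stood close to that limit.

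Total RNA was sequenced along 1 time course of Saccharomyces cerevisiae. The strain has the BY4741 background, a laboratory background of mating type a, and carries pho84pr-YFP, a yellow fluorescent reporter under the promoter of the phosphate transporter gene PHO84, and delta-phm3. Cells were moved from high phosphate medium to medium without phosphate, and 24 libraries came from 15 to 360 min after the transfer, 1 every 15 min, against 1 high phosphate library at 0 min. All 25 libraries share the reporter and the deletion label, so no comparison here bears on either.

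PHM3 is now called VTC4 and encodes the polyphosphate polymerase subunit of the vacuolar transporter chaperone complex. VTC4 (chromosome X, 411234 to 413399, R64) was listed in all 25 libraries with 50 to 517 reads and stood at 7.92 log2 RPM at 0 min, so the libraries are described as labelled phm3_del. RPM are reads per 1000000 listed reads. The depth implied by the values ran from 106673 reads at 195 min and 188242 at 345 min, the shallowest libraries, to 1911634 at 105 min, with a median of 746653. At these depths 10 reads corresponded to between 2.39 and 6.55 log2 RPM. Ribosomal protein transcripts made up 32.4% of listed reads in high phosphate, 9.40% after 60 min, 28.5% after 90 min, 31.9% after 105 min and 4.13% after 285 min. Since values are shares of a library, a fall of these transcripts raises the share of others. In these bulk samples a change in every cell and a change in some of the cells cannot be told apart.

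In autophagy a cell wraps cytoplasm or organelles in a double membrane, the autophagosome, and delivers them to the vacuole, where proteases and lipases break them down and permeases return the products. The Atg1 kinase complex starts the process, vesicles that carry Atg9 and a phosphatidylinositol 3-kinase build the membrane, and a ubiquitin-like protein, Atg8, is attached to membrane lipid by Atg4, Atg7 and Atg3 with help from the Atg12 and Atg5 conjugate. Receptors such as Atg19 tie chosen cargo to Atg8, also in the cytoplasm-to-vacuole targeting (Cvt) pathway, which brings hydrolases to the vacuole in growing cells. Autophagy in yeast is best known as a response to lack of nitrogen, and transcripts of several of its genes are known to be limited by repressors such as Ume6 during growth.

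The 28 windows from 400 to 101 bases before the start codon were read from the R64 genome to look for short motifs named for known regulators. Of these, 4 are printed 5′ to 3′ in the direction of the gene because they include the gene with the steepest fall at 75 to 105 min (ATG8), the pair of receptor genes with the largest late differences among tested members (ATG19 and ATG34) and a gene that held the commonest motif and rose in no test below (ATG27). Capitals mark motif matches on either strand: CCCCT, the stress response element bound by Msn2 and Msn4, which reads AGGGG on the opposite strand; GGCGGC, the core of the Ume6 site, here 2 matches that overlap; and TGACTC, a Gcn4 site, which reads GAGTCA on the opposite strand. They lie at chrII:80832-81131 (minus strand), chrXV:168327-168626 (plus strand), chrXV:165314-165613 (plus strand) and chrX:90198-90497 (minus strand), and neighbouring coding sequence was not masked.
ATG8: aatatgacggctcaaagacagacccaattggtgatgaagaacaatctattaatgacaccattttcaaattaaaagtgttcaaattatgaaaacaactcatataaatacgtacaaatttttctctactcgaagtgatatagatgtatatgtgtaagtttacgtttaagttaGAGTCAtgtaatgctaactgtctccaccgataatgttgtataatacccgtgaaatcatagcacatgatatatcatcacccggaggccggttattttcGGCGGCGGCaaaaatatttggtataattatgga
ATG19: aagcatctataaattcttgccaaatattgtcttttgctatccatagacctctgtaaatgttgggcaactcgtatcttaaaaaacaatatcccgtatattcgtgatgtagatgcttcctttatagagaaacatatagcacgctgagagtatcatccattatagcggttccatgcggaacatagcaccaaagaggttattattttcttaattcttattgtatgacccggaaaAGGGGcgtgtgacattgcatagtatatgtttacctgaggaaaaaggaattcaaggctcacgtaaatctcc
ATG34: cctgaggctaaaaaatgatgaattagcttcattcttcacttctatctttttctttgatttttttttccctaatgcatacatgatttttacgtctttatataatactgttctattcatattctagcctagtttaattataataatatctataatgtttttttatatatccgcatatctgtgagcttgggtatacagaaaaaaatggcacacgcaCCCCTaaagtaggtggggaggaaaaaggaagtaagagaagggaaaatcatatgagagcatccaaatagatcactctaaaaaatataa
ATG27: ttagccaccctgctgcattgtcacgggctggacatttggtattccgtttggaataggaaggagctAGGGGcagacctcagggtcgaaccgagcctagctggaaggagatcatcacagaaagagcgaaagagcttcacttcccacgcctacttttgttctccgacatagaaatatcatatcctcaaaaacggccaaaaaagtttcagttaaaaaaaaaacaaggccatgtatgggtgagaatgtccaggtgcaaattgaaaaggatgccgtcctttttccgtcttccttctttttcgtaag
The stress response element occurred in 13 of the 28 windows (46.4%), against 23.5% of 6001 windows of annotated genes. Its holders included genes that rose and ATG27, which did not pass. GGCGGC was found for ATG8 alone among the 28, against 6.12% of all windows. TGACTC occurred in 5 of 28 windows (17.9%), among them ATG8, ATG4, ATG18, ATG21 and ATG29, against 8.47% of all. Of the other motifs searched on both strands, GATAAG (nitrogen-responsive GATA factors) was in 4 of 28 against 13.9% of all windows, CACGTG (Pho4 and other factors) in 3 against 4.55%, AGGGAT (Gis1 and Rph1) in 2 against 9.73%, and CACGTT (Pho4) in 1, ATG22, against 9.85%. A match describes letters in a window and was not tested for binding.

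The number of autophagy genes listed followed depth at the low end, as the plot of listed genes against depth shows. Only 6 of 28 were listed at 195 min and 16 at 345 min, and the other libraries listed 17 (90 min) to 25 (285 min). ATG10, the E2 enzyme that attaches Atg12, was listed in 4 libraries, ATG23, a partner of Atg9, in 7, ATG32, the mitophagy receptor, in 13, ATG14, the autophagy subunit of the phosphatidylinositol 3-kinase, in 14 and ATG3, the E2 enzyme of Atg8, in 19. ATG1, which encodes the kinase that starts autophagy, was listed in 1 library, at 285 min, with 13 reads (3.51 log2 RPM). The values of 24 of the 25 listed genes were whole reads in every library that listed them, within 0.02 reads, and those of ATG14 in 13 of 14. The only member whose annotated span overlaps another gene is ATG29 (SET6, by 24 bases), which had no value.

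**Figure D1:**
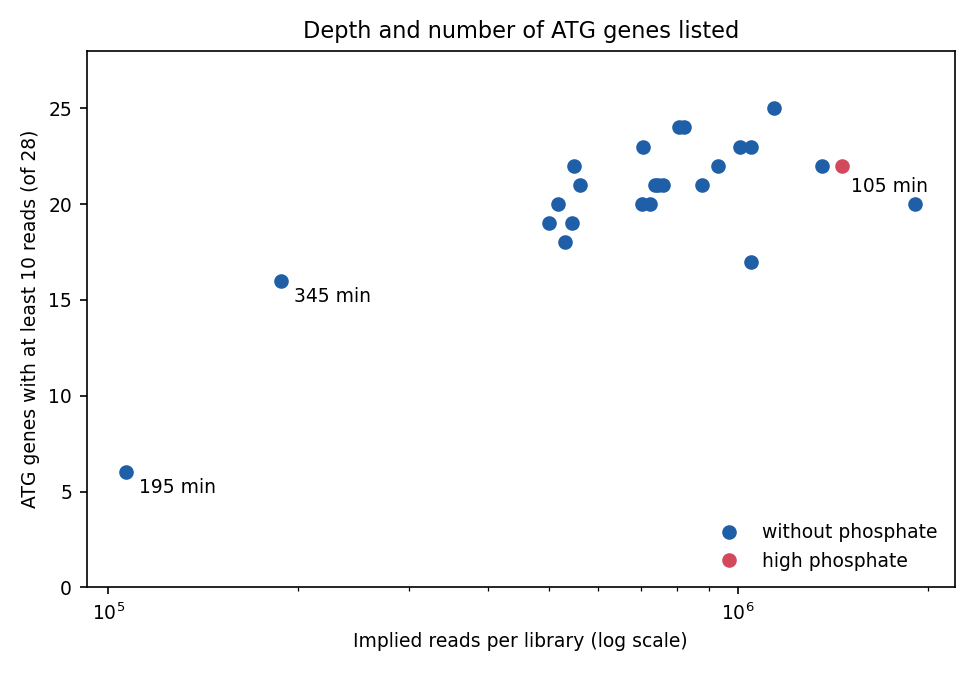
Number of the 28 ATG genes with at least 10 reads (y axis) against implied reads per library (x axis, log scale), 1 point per library. The shallow libraries at 195 min and 345 min list 6 and 16 genes, and the others 17 to 25.

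On a scale per kilobase, which allows levels of different genes to be set side by side, ATG33 and ATG8 were the most abundant at 255 to 360 min, with means of 9.39 and 8.67 log2 RPM per kb. ATG22 followed at 7.65 and ATG19 at 6.76, and ATG27, ATG12 and ATG5 came next at 6.66, 6.41 and 6.35. Each of these last 4 differed from its neighbour in the order by less than the larger of their SDs (0.26 to 0.37, n = 7 or 8 libraries). At the other end, ATG2 had 4.15 log2 RPM per kb, the lowest of the members tested below, and the single listed value of ATG1 was 2.08.

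For testing, libraries without phosphate were set in windows of 8 neighbouring times: 255 to 360 min (late), 135 to 240 min (middle) and 15 to 120 min (early). To be tested, a gene had to have a value in 6 or more of the 8 libraries in every window, so that no gene entered through a single window. This left 19 of the 28 autophagy genes. No separate cultures are named in the labels and neighbouring times resemble each other, so the p-values cover the spread among these libraries and nothing beyond it. Differences below are in log2 RPM with standard errors, and adjusted p-values are from limma with Benjamini-Hochberg adjustment over all genes tested.

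Most autophagy transcripts took a larger share of reads late in the course than early. Of the 19 genes tested, 16 were higher at 255 to 360 min than at 15 to 120 min and 0 were lower at an adjusted p under 0.05, where 31.5% of all 4634 tested genes were higher and 8.85% lower. Their median difference was 0.97, against 0.23 for all tested genes. In 4 of the 19 (ATG19, ATG34, ATG33 and ATG22) every late library was above every early one, which held for 8.55% of all tested genes. With each library centred on the median of its tested genes, the median of all genes moved to -0.07 and that of the autophagy genes to 0.65, with 14 higher and 1 lower (ATG27, difference -0.63, adjusted p = 0.00872 by limma), while calls over all genes went to 600 higher and 840 lower, against 1462 and 410 as deposited.

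**Figure D2:**
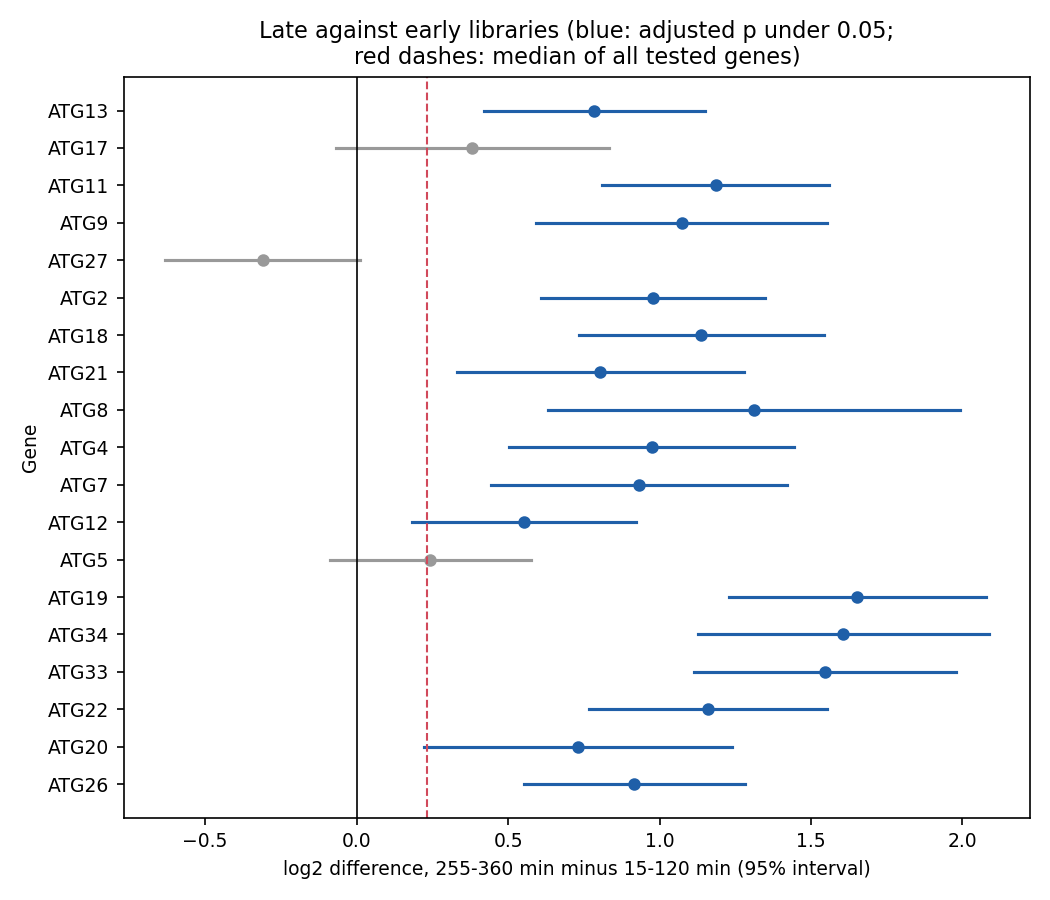
Difference in log2 RPM (x axis) between 255 to 360 min and 15 to 120 min for the 19 tested autophagy genes (y axis, by role), with 95% intervals from limma. Blue points pass an adjusted p of 0.05, grey ones do not, and the dashed line marks the median of all tested genes, 0.23. ATG19 lies farthest to the right at 1.65, and ATG27 at -0.31 is the only gene left of 0.

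The group listed as selective receptors (ATG19, ATG34, ATG32 and ATG33) had the largest median difference of the roles, at 1.61 over the 3 tested of 4 members. All 3 rose, where 31.5% of all tested genes were higher. Roles were assigned by list, and ATG11, also of selective autophagy, was placed with the Atg1 kinase complex. ATG19 (chromosome XV, 168727 to 169974), the receptor of the Cvt pathway, had 6.80, 6.93 and 7.93 log2 RPM (lowest, median and highest) at 255 to 360 min, against 4.63, 5.65 and 6.08 at 15 to 120 min, with 3.77 in high phosphate. The difference of late from early libraries was 1.65 ± 0.21 (SE; adjusted p = 3.66e-07, limma), or 3.14-fold, and the windows did not overlap. ATG34 (chromosome XV, 165714 to 166952), a paralog that lies close by on the same chromosome and binds the mannosidase Ams1 in starved cells, had 5.57, 5.91 and 6.41 log2 RPM late, against 3.07, 4.55 and 5.24 early and 3.54 in high phosphate. Its difference was 1.61 ± 0.23 (adjusted p = 3.9e-06, limma), again with no overlap. The lowest early value of ATG19 came at 90 min, with 4.72 at 15 min and 4.85 at 105 min, and ATG19 was lower still in high phosphate. That of ATG34 came at 105 min, with 3.26 at 90 min. ATG33 (chromosome XII, 840321 to 840914), which encodes a mitochondrial outer membrane protein needed for mitophagy, had 8.05, 8.71 and 8.93 log2 RPM late, against 6.04, 7.19 and 7.86 early and 6.25 in high phosphate. It rose by 1.55 ± 0.21 (adjusted p = 1.29e-06, limma), with no overlap. The mitophagy receptor gene ATG32 was listed in 6 of 8 late libraries (4.64 to 5.26 log2 RPM), against 2 of 8 early ones, and was not tested.

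ATG22 (chromosome III, 54941 to 56527), a vacuolar membrane protein that exports amino acids, had a narrow late range of 8.15, 8.31 and 8.44 log2 RPM, against 6.31, 7.23 and 7.92 early and 5.54 in high phosphate. Late libraries were 1.16 ± 0.19 higher than early ones (adjusted p = 2.11e-05, limma), without overlap. ATG15, the lipase that opens autophagic bodies in the vacuole, had no value.

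Within the Atg8 and Atg12 conjugation systems 4 of the 5 tested genes were higher late than early, where 31.5% of all tested genes were. The other 3 of the 8 members were not tested. ATG8 (chromosome II, 80378 to 80731) had 5.73, 7.31 and 7.59 log2 RPM late, against 4.52, 6.06 and 7.13 early and 4.77 in high phosphate. It rose by 1.31 ± 0.33 (adjusted p = 0.00252, limma), and the windows overlapped through the shallow 345 min library alone, which held 10 reads of ATG8. The other late libraries all stood above the early maximum. ATG4, the protease that trims Atg8, rose by 0.97 ± 0.23 and ATG7, the E1 enzyme of both systems, by 0.93 ± 0.24 (adjusted p = 0.00138 and 0.00288, limma). ATG12 rose by 0.55 ± 0.18 (adjusted p = 0.0158, limma), a call lost under median centring (0.31, adjusted p = 0.188). ATG5, to which Atg12 is joined, had 5.82, 6.10 and 6.93 log2 RPM late, against 5.57, 5.91 and 6.55 early, and did not pass (0.24 ± 0.16, 95% interval -0.09 to 0.58, adjusted p = 0.239, limma).

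Of the Atg1 kinase complex, 2 of the 3 tested genes rose, where 31.5% of all tested genes did. ATG11, the scaffold of selective autophagy, had 5.93, 6.19 and 6.80 log2 RPM late, against 4.70, 5.03 and 5.93 early, a difference of 1.18 ± 0.18 (adjusted p = 8.7e-06, limma). ATG13, the regulatory subunit whose phosphorylation state is set by TOR, had 6.12, 6.75 and 7.03 late, against 5.27, 5.87 and 6.40 early, a difference of 0.78 ± 0.18 (adjusted p = 0.000867, limma). ATG17, the scaffold of starvation-induced autophagy, had 4.90, 5.15 and 5.75 late, against 3.71, 4.74 and 5.63 early, and did not pass (0.38 ± 0.22, adjusted p = 0.171, limma). The late and early ranges of ATG11 met at 5.93, those of ATG13 and ATG17 overlapped.

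Among the genes for Atg9 vesicles and lipid transfer, 4 of 5 tested genes rose, where 31.5% of all tested genes did. ATG18, which binds phosphatidylinositol 3-phosphate, rose by 1.14 ± 0.20, ATG9, a membrane-spanning lipid scramblase, by 1.07 ± 0.23 and ATG2, the lipid transfer protein, by 0.98 ± 0.18 (adjusted p = 4.17e-05, 0.000682 and 9.24e-05, limma). ATG21, a relative of Atg18, rose by 0.80 ± 0.23 (adjusted p = 0.00694, limma), a call lost when unlisted values were set to 10 reads (0.69, adjusted p = 0.0571). ATG27, a membrane protein of Atg9 transport, went the other way in value, with 6.00, 6.39 and 6.76 log2 RPM late, against 6.17, 6.70 and 7.05 early (-0.31 ± 0.16, 95% interval -0.64 to 0.02, adjusted p = 0.116, limma). Its high phosphate level of 6.39 equalled the late median.

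The sterol glucosyltransferase gene ATG26, whose role in peroxisome degradation is known from Komagataella, rose by 0.92 ± 0.18 (adjusted p = 0.000173, limma). The sorting nexin gene ATG20 rose by 0.73 ± 0.25 (adjusted p = 0.0199, limma). The call of ATG20 was lost without the 90 and 105 min libraries (0.37, adjusted p = 0.123) and under median centring (0.49, adjusted p = 0.0919).

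Against the single high phosphate library, 15 of 19 autophagy genes were higher at 255 to 360 min and 0 were lower, where 25.0% of 4613 tested genes were higher and 5.46% lower. Their median difference was 1.74, against 0.42 for all tested genes. The fit takes that 1 library to have the spread of the rest. Under median centring 8 of the 19 passed and the median of all genes was -0.14, with 392 genes higher and 442 lower, against 1154 and 252 as deposited. ATG19 differed most, by 3.31 ± 0.44 (adjusted p = 4.66e-06, limma), or 9.89-fold, followed by ATG22 at 2.78 ± 0.41 (adjusted p = 1.94e-05, limma), and both passed under median centring. ATG9, ATG8, ATG33, ATG34 and ATG4 were 2.41, 2.40, 2.39, 2.39 and 2.28 higher, with ATG8 not passing under median centring (1.83, adjusted p = 0.0811, limma). The genes that did not pass were ATG20 (1.25, adjusted p = 0.0648), ATG12 (0.63, adjusted p = 0.205), ATG5 (0.22, adjusted p = 0.665) and ATG27 (-0.03, adjusted p = 0.961, limma). The value of ATG5 had the opposite sign under both centrings, at -0.36 and -0.18.

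Early libraries against high phosphate gave no call for autophagy genes. In limma 0 of 19 passed an adjusted p of 0.05 in either direction, where 0.694% of all tested genes were higher and 0% lower. At an unadjusted p under 0.05 there were 7, and the share of all genes there was not counted. The median difference of the 19 was 0.82, against 0.22 for all genes. ATG22 came closest (1.62 ± 0.41, adjusted p = 0.0597, limma), with ATG19 next (1.65 ± 0.44, adjusted p = 0.0772). The count moved with the setting, and calls over all genes moved with it. Being alone at its level, the high phosphate library has no spread of its own. Its quality could therefore not be estimated for the library weights. With libraries weighted by their estimated quality 10 of 19 passed as higher, where 15.2% of all tested genes did. Without the 90 and 105 min libraries, which had been seen to stand near high phosphate, 7 passed (ATG22, ATG19, ATG17, ATG9, ATG34, ATG4 and ATG33), where 11.7% of all genes did. Leaving out 1 library gave 2 without 15 min, 2 without 90 min and 3 without 105 min, where 0.811%, 1.98% and 2.57% of all genes passed as higher.

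Late and middle libraries were not told apart for any autophagy gene. In limma 0 of 19 passed an adjusted p of 0.05, where 1.17% of all tested genes were higher and 0.906% lower. At an unadjusted p under 0.05 there were 3, and the share of all genes there was not counted. The median difference of the 19 was 0.23, against 0.04 for all genes. The largest was that of ATG11 (0.57 ± 0.19, adjusted p = 0.0948, limma), and ATG22 differed by -0.05 ± 0.19. With the weighted libraries 5 passed as higher late (ATG8, ATG26, ATG33, ATG19 and ATG11), where 12.4% of all tested genes were higher and 10.4% lower.

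A smooth curve of time (a spline with 4 degrees of freedom) over the 24 libraries without phosphate could be fitted for 20 autophagy genes, those listed in at least 18. Of these 20, 14 changed with time, where 30.8% of 4784 genes did. The genes that did not pass were ATG17, ATG27, ATG4 (adjusted p = 0.0516), ATG3, ATG12 and ATG5 (limma).

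**Figure D3:**
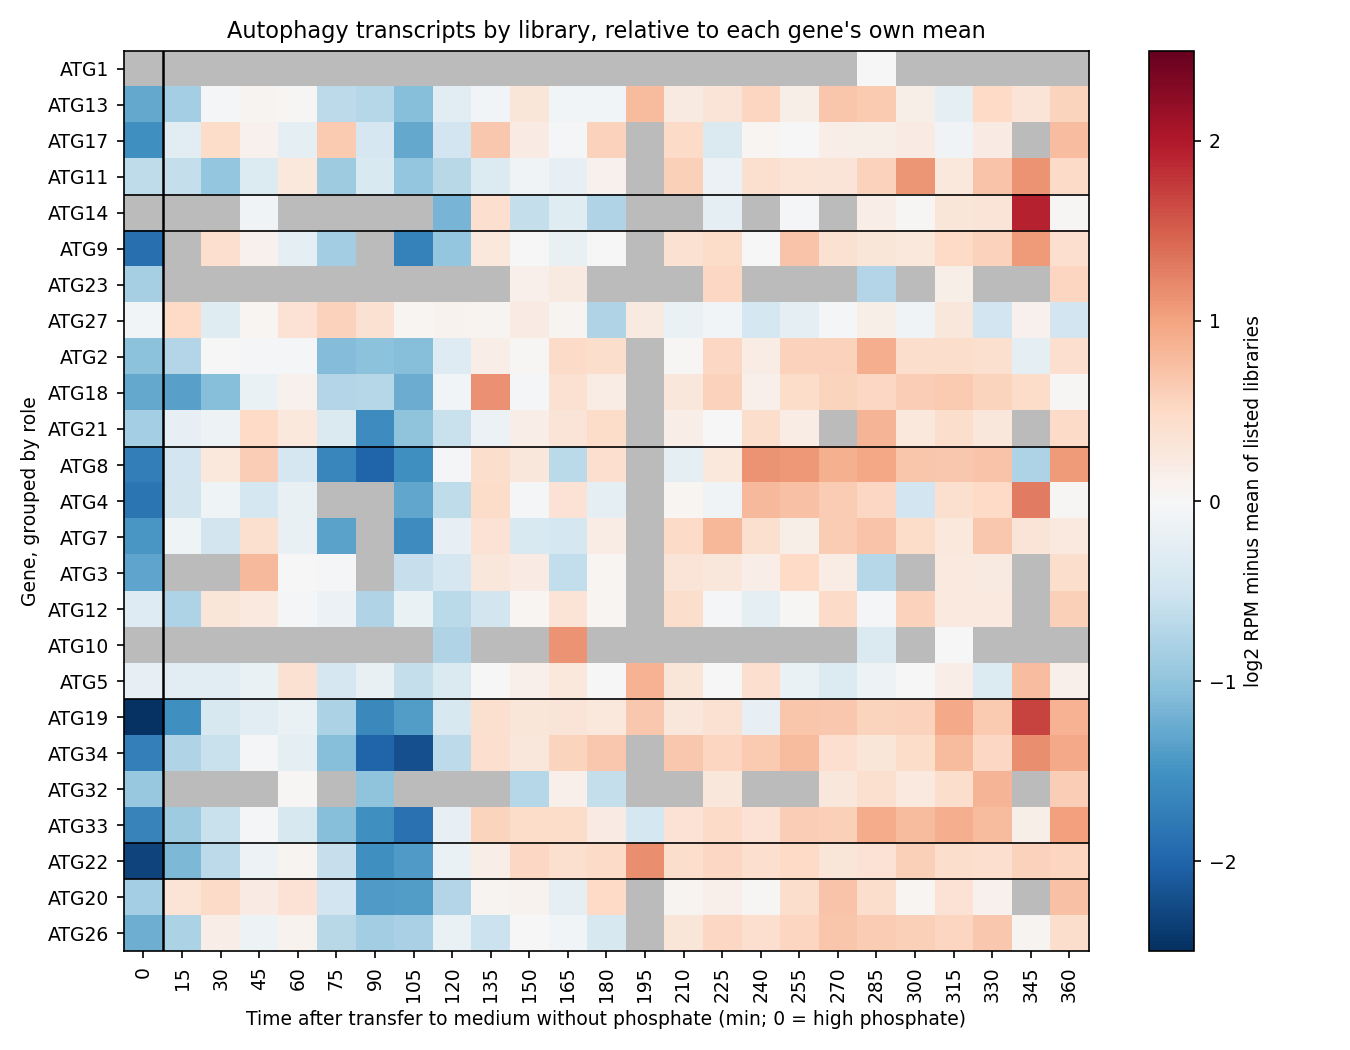
Each gene's log2 RPM minus its own mean over the libraries that listed it (colour scale), for the 25 autophagy genes with a value (y axis, grouped by role) by time in min (x axis, 0 min is high phosphate). Grey cells had fewer than 10 reads. Blue columns at 0 min and at 90 and 105 min frame a first rise, and most genes are red from 135 min on.

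The course was not a single rise. Of the 19 autophagy genes, those listed in a library (18 at 15, 75 and 270 min, 16 at 90 min, 15 at 345 min, 6 at 195 min, otherwise 19) were set against their own high phosphate values. The median one stood 0.70 log2 RPM above that value at 15 min, 1.35 above at 45 min and 1.31 at 60 min. The excess was 0.54 at 75 min, then 0.19 at 90 min and only 0.12 at 105 min. At 120 min it was 1.05, at 135 min 1.82, and between 1.60 and 1.94 from 255 to 360 min. Over all 2205 genes listed in every library the median was 0.42 at 45 min, 0.00 at 105 min and 0.53 at 135 min. The mean of 90 and 105 min differed from high phosphate by a median of -0.03 over the 19 genes, from -0.56 for ATG20 to 0.97 for ATG19. For ATG4, ATG7 and ATG9, which had fewer than 10 reads at 90 min, this is the 105 min value alone. Ribosomal protein transcripts, at 28.5% and 31.9% of reads at 90 and 105 min, were then also close to their 32.4% of high phosphate, and their part in the dip of other genes was not tested.

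**Figure D4:**
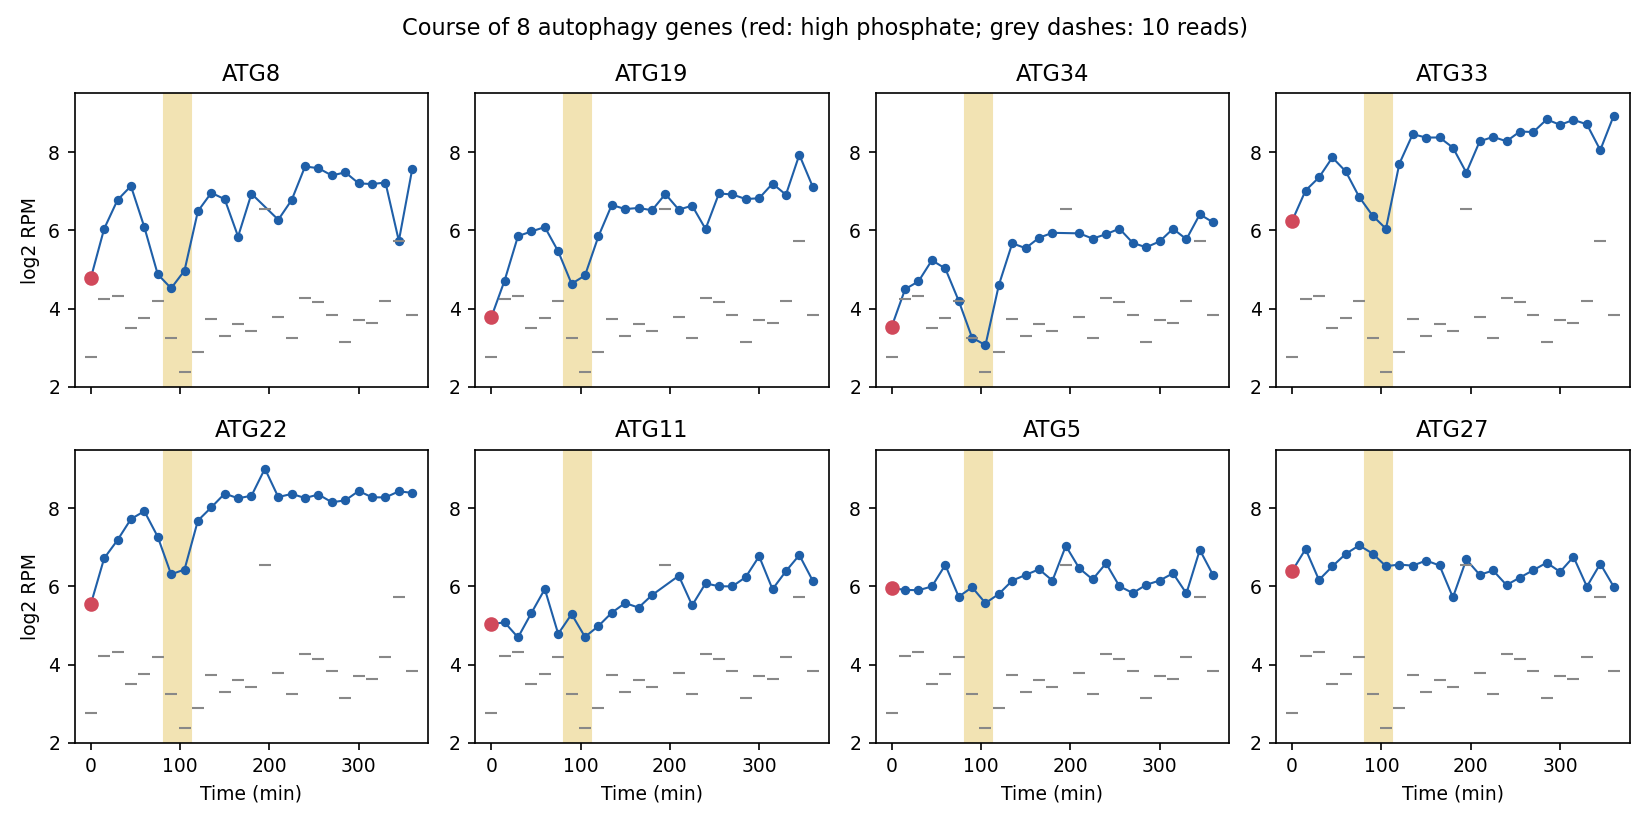
Log2 RPM (y axis) of 8 autophagy genes against time in min (x axis), with high phosphate as a red point, the value of 10 reads in each library as a grey dash and 90 to 105 min shaded. Lines join listed values. ATG8, ATG19, ATG34, ATG33 and ATG22 dip in the shaded span, where ATG34 is at 3.26 and 3.07, while ATG5 stays between 5.57 and 7.04 and ATG27 between 5.72 and 7.05.

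To give this dip a size for each gene, blocks of 3 neighbouring libraries were compared: 75 to 105 min with 30 to 60 min, and 135 to 165 min with 75 to 105 min. The blocks were placed where earlier results of these same data had shown the dip, so their p-values and counts describe its size and are not independent evidence that it occurred. Both use the libraries at 75 to 105 min, so they are not independent. The test took genes with a value in 2 or more of the 3 libraries of every block, again 19 autophagy genes, with ATG3 in and ATG4 out.

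At 75 to 105 min 12 of the 19 were lower than at 30 to 60 min and 0 were higher, where 19.0% of 4805 genes were lower and 10.4% higher. Their median difference was -0.94, against -0.22 for all genes. With libraries centred on the median the same comparison gave 12 lower, where 13% of all tested genes were. The medians were then -0.74 and -0.01. ATG8 changed most: it had 4.88, 4.52 and 4.97 log2 RPM at 75, 90 and 105 min, against 6.78, 7.13 and 6.08 at 30, 45 and 60 min, a fall of 3.67-fold (-1.88 ± 0.33, adjusted p = 0.00217, limma). All 3 values of the later block lay below all 3 of the earlier one. ATG34 had 4.20, 3.26 and 3.07 log2 RPM, against 4.70, 5.24 and 5.03 (-1.48 ± 0.29, adjusted p = 0.00344, limma), again without overlap. The blocks of ATG3 and ATG12 did not overlap either, yet these genes did not pass. How often blocks failed to overlap over all genes was not counted. ATG20 fell by 1.45 (adjusted p = 0.00259), ATG7 by 1.37 (adjusted p = 0.00921), ATG9 by 1.37 (adjusted p = 0.00688), ATG21 by 1.19 (adjusted p = 0.011) and ATG33 by 1.15 (adjusted p = 0.00503, limma). ATG7 and ATG9 were not listed at 90 min, so their falls rest on the other times of the block.

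Smaller falls were those of ATG2 (-1.03), ATG19 (-0.99), ATG22 (-0.94), ATG13 (-0.83) and ATG26 (-0.83). With 1 library left out, 4 of the 12 lost their call in some fit at similar differences. ATG22 was at -0.88, -0.78, -0.76 and -0.82 without 45, 60, 90 and 105 min, against -0.94 with all. Without 90 min ATG26 was at -0.79, ATG19 at -0.82 (adjusted p = 0.0522) and ATG21 at -0.89 (adjusted p = 0.0603, limma). ATG17, ATG11, ATG27, ATG18, ATG3, ATG12 and ATG5 did not pass. The value of ATG17 (-0.46) turned on single libraries, at -0.96 without 75 min, where it passed (adjusted p = 0.0398, limma), and 0.00062 without 105 min. ATG27 was again the exception in sign, with 7.05, 6.84 and 6.52 log2 RPM at 75, 90 and 105 min, against 6.17, 6.51 and 6.83 at 30, 45 and 60 min (0.30 ± 0.23, adjusted p = 0.365, limma).

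From 135 to 165 min 13 of 19 autophagy genes were higher than at 75 to 105 min and 0 were lower, where 25.1% of all tested genes were higher and 11.1% lower. Their median difference was 1.09, against 0.29 for all genes, and 12 passed under either centring. The receptor gene ATG34 had 5.67, 5.54 and 5.81 log2 RPM at 135, 150 and 165 min, against 4.20, 3.26 and 3.07 at 75, 90 and 105 min, a 4.49-fold difference (2.17 ± 0.29, adjusted p = 0.000175, limma). ATG33 rose by 1.98 ± 0.24, ATG8 by 1.74 ± 0.33, ATG19 by 1.61 ± 0.24 and ATG22 by 1.55 ± 0.29 (adjusted p = 0.000145, 0.00163, 0.000366 and 0.00145, limma). In each of these genes the blocks did not overlap, but this also held for ATG11 and ATG5, which did not pass. How often it held over all genes was not counted. ATG26 (0.59, adjusted p = 0.0492) lost its call under either centring (0.36) and when 90, 105, 150 or 165 min was left out, and ATG21 (1.09, adjusted p = 0.0131, limma) lost its call when 90 min was. ATG17 (0.63) passed without 75 min (1.12, adjusted p = 0.0184, limma).

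**Figure D5:**
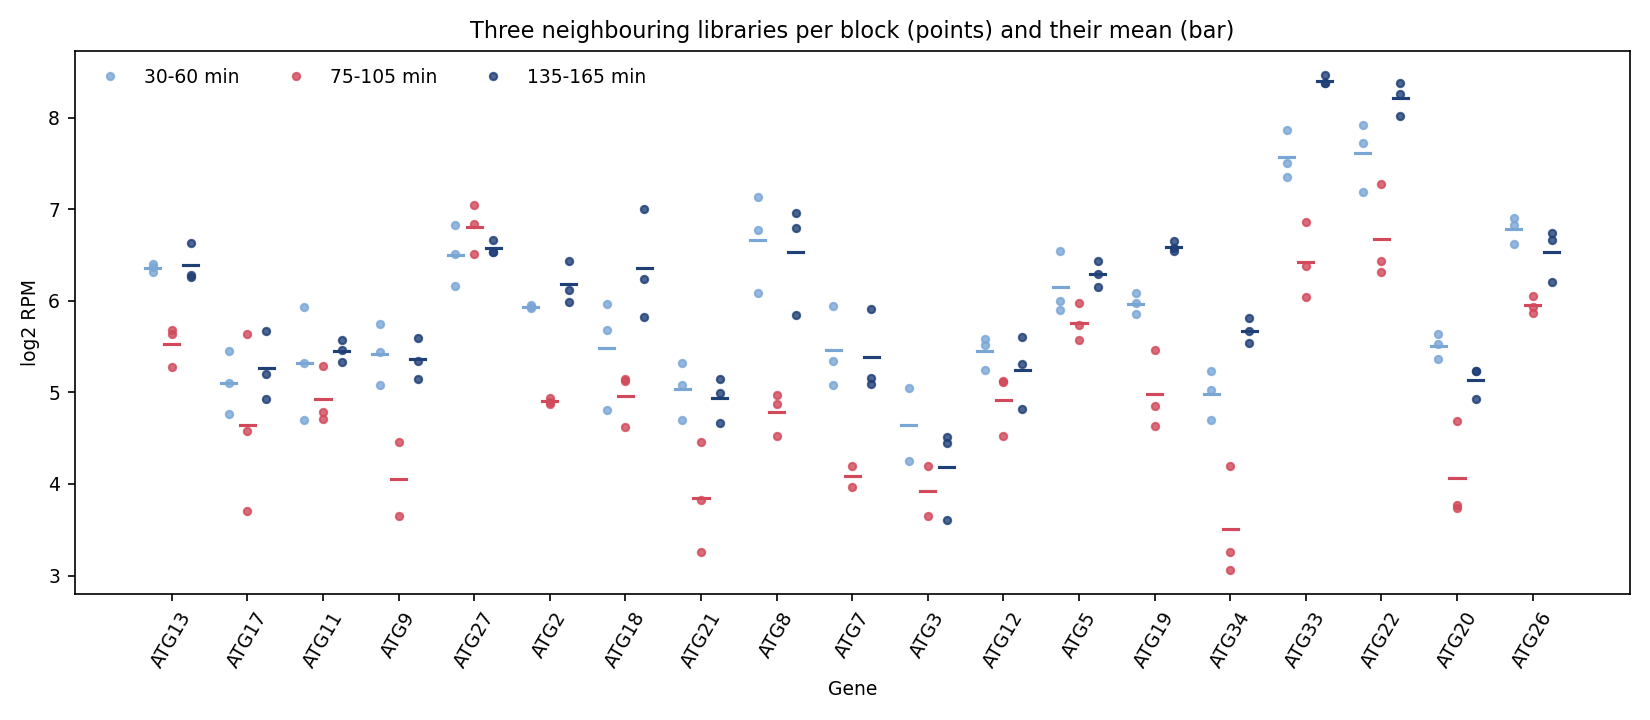
Log2 RPM (y axis) of the 19 autophagy genes tested in the blocks (x axis), with 1 point per library at 30 to 60 min, 75 to 105 min and 135 to 165 min and a bar at each mean. The red points of 75 to 105 min lie lowest for most genes, with ATG8 at 4.52 to 4.97, and ATG27 is the exception with its highest mean there.

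The second rise was set against the first in a comparison added after the values had been seen. Between 135 to 165 min and 30 to 60 min 0 of 19 autophagy genes passed an adjusted p of 0.05 in limma. At that threshold 0.0416% of all tested genes were higher and 0.0832% lower. At an unadjusted p under 0.05 there were 4 autophagy genes, and the share of all genes there was not counted. The 4 were ATG18 (0.87 ± 0.34), ATG33 (0.83 ± 0.24), ATG34 (0.69 ± 0.29) and ATG19 (0.62 ± 0.24), all higher in the later block. ATG8 differed by -0.13 ± 0.33, with 6.96, 6.80 and 5.84 log2 RPM at 135, 150 and 165 min, against 6.78, 7.13 and 6.08 at 30, 45 and 60 min, so its blocks overlapped.

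Untested members can be given as bounds, all taken from the 285 min library, which listed the most autophagy genes (25). ATG14 had 20.2 RPM at 285 min, at least 2.95-fold higher than 10 reads at 0 min and at least 3.86-fold higher than 10 reads at 105 min, where it was not listed. ATG32 had 28.1 RPM at 285 min, at least 5.37-fold higher than that limit at 105 min, but it was listed at 90 min (3.39 log2 RPM) and at 0 min (3.45). The corresponding bounds at 105 min were 2.18-fold for ATG1, 1.85-fold for ATG10 and 1.68-fold for ATG23. These rest on 13, 11 and 10 reads at 285 min, at or close to the limit, so they do not establish a rise. The bounds of ATG14 and ATG32 rest on 23 and 32 reads in that 1 library, chosen for its listings. They leave out counting error and do not establish a rise either. ATG23 was listed at 3.04 log2 RPM in high phosphate, against 3.13 at 285 min. ATG3 was listed at 2.91 log2 RPM in high phosphate and, where listed, between 3.51 and 5.05 without phosphate. It was not listed at 15, 30, 90, 195, 300 and 345 min. The limit of 10 reads lay below 2.91 only at 105 min (2.39) and 120 min (2.88), where ATG3 stood at 3.65 and 3.81. At all other times without phosphate a listed value had to exceed 2.91, so the range does not establish a rise.

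Other ATG genes stood in the table under older or systematic names, which the R64 annotation links to ATG names, and so fell outside the 28. ATG40 (as YOR152C), a receptor for the endoplasmic reticulum, had a mean of 7.24 ± 0.23 log2 RPM late and 5.19 ± 0.74 early (SD, n = 8 each), a difference of 2.05 ± 0.22 (SE; adjusted p = 3.9e-08, limma), larger in value than that of any of the 19. ATG42 (YBR139W, a vacuolar carboxypeptidase, 0.92), ATG31 (CIS1, of the Atg17 complex, 0.84), ATG41 (ICY2, 0.64) and ATG44 (YIL156W-B, 0.57) also passed. ATG45 (YIL024C, 0.42, adjusted p = 0.152) and the peroxisome receptor ATG36 (YJL185C, 0.10, adjusted p = 0.742, limma) did not. ATG39 (YLR312C), a receptor for the nuclear envelope, was listed in 6 of 8 late and 2 of 8 early libraries and was not tested.

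Genes that work with the autophagy proteins were read from lists, late against early libraries, where 31.5% of all tested genes were higher. All 4 Cvt cargo genes passed as higher, led by the mannosidase gene AMS1 (1.86 ± 0.34, adjusted p = 0.000109, limma), a cargo of Atg19 and Atg34. The aminopeptidase I gene LAP4, the main Cvt cargo, rose by 0.84 ± 0.29 (adjusted p = 0.0224, limma). All 3 vacuolar protease genes were higher: PRB1 by 1.25, PEP4 by 1.15 and PRC1 by 0.95. These 7 genes also all fell at 75 to 105 min against 30 to 60 min, where 19.0% of all tested genes were lower. AMS1 fell by 2.27 and LAP4 by 2.10 on the log2 scale. All 7 rose again at 135 to 165 min, where 25.1% of all tested genes were higher. As above, these blocks were placed on a dip already seen in these data.

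Of 12 tested genes for fusion with the vacuole, 3 were higher and 0 lower, with a median of 0.33, close to the 31.5% higher and the median of 0.23 over all genes. Of 4 tested sorting partners 0 were higher and 1, TRS65 (listed as KRE11), was lower (-0.49 ± 0.19, adjusted p = 0.046, limma). Among partners of the phosphatidylinositol 3-kinase VPS30, which is ATG6, rose by 1.28 ± 0.24 (adjusted p = 0.000176, limma) and VPS15 by 0.66 (adjusted p = 0.0204), while VPS34 did not pass (0.49, adjusted p = 0.0761).

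Of 23 tested regulators of autophagy 13 were higher and 0 lower, with a median of 0.57, where 31.5% of all tested genes were higher and 8.85% lower, with a median of 0.23. The largest were the Pho85 cyclin gene CLG1 (1.15 ± 0.23) and the kinase gene PHO85 itself (1.01 ± 0.14, adjusted p = 0.000229 and 2.12e-06, limma). Of 10 tested transcription regulators 7 were higher and 0 lower, with a median of 0.62, against the same 31.5%, 8.85% and 0.23 over all genes. They included the general stress activator MSN4 (1.45 ± 0.22), the GATA factor GAT1 (1.38 ± 0.18) and RPH1 (1.13 ± 0.17), which represses autophagy genes in growing cells. The repressor gene UME6 did not pass (0.34 ± 0.26, adjusted p = 0.318, limma).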

How the data were processed

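The authors aligned the reads of the 25 libraries to R64 using Bowtie, per the submitters' processing notes. For the version of Bowtie, the gene annotation and the counting step, nothing is given in the sources used here. Each deposited value is a log2 RPM, which was read from the sums of about 1000000 per library, although the series text speaks of a normalization to the first time point. Between 93.5% and 95.4% of the values of a library were whole reads within 0.02 reads, and the smallest was 10 reads, so a gene without a value had fewer than 10. Of 6701 entries, 51 without a name held no value, and 2 with the same name were dropped. Coordinates and promoter windows come from the R64 genome and RefSeq annotation, to which all 28 genes were matched.

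All genes were fitted together on the log2 scale by limma 3.58.1 (R 4.3.3, lmFit and eBayes, 2-sided), with 4 levels (the 3 windows and high phosphate), or with 3 blocks of 3 libraries. Benjamini-Hochberg adjusted p-values were held to a threshold of 0.05. No pseudocount was used. Every autophagy gene with a value is accounted for. Tested ones are named by role, and other genes come from lists, of which the largest late minus early differences are named. The members, lists, windows and blocks were chosen with earlier results of these data known. Alternatives were other scalings, filters, a pseudocount of 10 RPM, other variance settings, and leaving out libraries. Precision is limited by depth: a gene at 10 to 20 reads carries a large counting error, and no time point had a replicate.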

Additional observations from a re-analysis of the deposited data

Results flagged for a closer look

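In 57 groups of tested autophagy genes and windows, 12 single libraries stood far from the others of their window, by a test that flags about 1 in 20 groups by chance. Of these, 6 were in the shallow 345 min library, at 5.73 log2 RPM for ATG2, 5.73 for ATG8, 6.93 for ATG5, 7.93 for ATG19, 8.05 for ATG33 and 6.80 for ATG26. In the 195 min library, the shallowest, ATG33 stood low at 7.48 and ATG22 high at 9.01. The others were ATG17 at 5.75 and ATG18 at 5.90 in the 360 min library, ATG5 at 6.55 in the 60 min library and ATG19 at 6.04 in the 240 min library. Without the 195 and 345 min libraries the late against early comparison gave 16 of 19 genes higher, where 31.1% of all tested genes were.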

How the results depend on the processing

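Each comparison was repeated with both centrings, other filters, 10 reads for unlisted values, a pseudocount of 10 RPM, a variance trend, library weights, and without single libraries. Some settings changed counts by over 1.5 times. With genes listed in every library, which leaves 6 autophagy genes to test, 4 were higher late than early, 4 late than in high phosphate and 2 early than in high phosphate, where 33.9%, 31.5% and 1.86% of 2205 genes were. Under both centrings 1 gene was lower late than early, where 18.1% (median centring) and 13.5% (genes listed in all 25) of all tested genes were. Under median centring 8 were higher late than in high phosphate, where 8.5% of all tested genes were. For early libraries against high phosphate, 1 passed with a variance trend, 10 with library weights, 2 without 195 and 345 min and 7 without 90 and 105 min, where 0.737%, 15.2%, 1.04% and 11.7% of all genes were higher. With library weights 5 passed late against middle (12.4% of all genes higher) and 1 at 135 to 165 min against 30 to 60 min (1.89%). The cause was not tested beyond what each setting leaves out.

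Without single libraries 14 to 16 were higher late than early, where 28.1% to 33.3% of all tested genes were. Against high phosphate 14 to 15 were higher late (24.3% to 25.6% of all) and 0 to 3 early (0.581% to 2.57%). Late against middle 0 were higher (0.844% to 1.6%). At 75 to 105 against 30 to 60 min 8 to 12 were lower (8.64% to 26.8%). The 8 came without 90 min, where 8.64% of all were lower. At 135 to 165 min 10 to 13 were higher than at 75 to 105 min (13.6% to 31.8%). Against 30 to 60 min 0 were (0% to 0.0449%). Some members drop out as untested when a library is removed, which left 16 to 19.

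The sign turned for genes that had not passed. Under median centring the values were -0.075 for ATG5 (late against early), -0.36 for ATG5 (late against high phosphate), -0.18 for ATG12 and -0.20 for ATG11 (early against high phosphate), and -0.045 for ATG18 and -0.015 for ATG34 (late against middle). With centring on genes listed in all 25 they were -0.18 for ATG5 (late against high phosphate), -0.17 for ATG12 and -0.18 for ATG11 (early against high phosphate) and -0.00041 for ATG13 (135 to 165 against 30 to 60 min). Unlisted values at 10 reads gave -0.088 for ATG21 (late against middle). ATG5 was at 0.025 without 90 and 105 min (early against high phosphate) and ATG22 at 0.030 without 195 and 345 min (late against middle). Without single libraries ATG27 ran from -0.081 to 0.028 (late against high phosphate), ATG5 from -0.12 to 0.024 and ATG11 from -0.055 to 0.12 (early against high phosphate), ATG22 from -0.094 to 0.047, ATG27 from -0.082 to 0.062 and ATG17 from -0.12 to 0.053 (late against middle), and ATG17 from -0.96 to 0.00062 (75 to 105 against 30 to 60 min). For 135 to 165 against 30 to 60 min the ranges were -0.42 to 0.21 for ATG8, -0.38 to 0.014 for ATG12, -0.23 to 0.10 for ATG9, -0.33 to 0.17 for ATG7, -0.097 to 0.24 for ATG27, -0.040 to 0.34 for ATG17, -0.27 to 0.045 for ATG21, -0.17 to 0.45 for ATG11 and -0.091 to 0.093 for ATG13. No paired analysis was possible because each time point is 1 library and no replicate numbers are shared.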
